A study of Mus musculus with 12 samples.

Results

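The genes described here code for molecular chaperones, the proteins that fold, hold and refold other proteins, and for their J-domain partners. They were taken by symbol: any gene whose array annotation gave a single symbol starting with Hspa, Hspb, Hspd, Hspe, Hsph, Hsp90, Dnaja, Dnajb or Dnajc, plus the subunits of the cytosolic chaperonin (Cct2 to Cct8, Cct6a and Tcp1), without Hspa5 and Hsp90b1. The rule found 78 of the 18194 genes with a single symbol on the array. Where a gene had several probe sets, the brightest over all arrays was used. Of the 78 members, 70 passed the filter on dim probe sets and were tested. The 8 others (Dnajb3, Dnajb7, Dnajb13, Dnajc5b, Dnajc5g, Hspa1l, Hspb7 and Hspb9) averaged 0.50 to 1.38 log2 units over the 12 arrays, under the filter at 1.58, and are not read further. Hsf1 and Hsp90ab1, which the rule also names, are not analysed here.

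The name "cytosolic chaperones" fits only part of the 78 genes. Hspd1, Hspe1, Hspa9, Dnaja3, Dnajc15 and Dnajc30 code for mitochondrial proteins, and Dnajb9, Dnajb11, Dnajb14, Dnajc3, Dnajc10, Dnajc16 and Hspa13 for proteins of the endoplasmic reticulum. Hspbp1 and Hspbap1 share the Hspb prefix but are no small heat shock proteins. The small heat shock genes below are those named Hspb with a number, Hspb11 among them. They were grouped by symbol alone and not by protein family.

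Cerebellar RNA of 12 mice aged 6 weeks, all on a C57BL/6 background, was measured on 1 array per mouse. The groups were mice homozygous for a Sca6 knockin allele with 118 glutamine codons (MPI 118Q/118Q, here 118Q knockin), wild type littermates of that line, mice homozygous for an allele with 11 glutamine codons (MPI 11Q/11Q, here 11Q knockin), and wild type littermates of that second line, with 3 mice in each. SCA6, spinocerebellar ataxia type 6, is caused by an expanded glutamine tract in the P/Q-type calcium channel gene Cacna1a, and Purkinje cells degenerate in it. Levels are on the deposited log2 scale, where a difference of 1 is a 2-fold change.

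Hsp70 proteins bind exposed stretches of unfolded proteins and release them in a cycle driven by ATP. J-domain proteins, coded by the Dnaj genes, bring clients to Hsp70 and start ATP hydrolysis, and Hsp110 proteins exchange the nucleotide so that the client leaves. Hsp90 acts later, on nearly folded clients. The chaperonin CCT folds actin and tubulin inside a barrel of 8 kinds of subunit, and small heat shock proteins hold unfolded proteins without using ATP. Under heat or other stress, heat shock factor 1 binds inverted repeats of the letters GAA (heat shock elements) in promoters of the inducible members. Chaperones are studied in glutamine-repeat diseases because several of them, among them Dnajb6 and Dnajb2, keep such proteins from aggregating in cells.

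RefSeq promoter windows of GRCm38.p6, each 300 bases long with 250 before and 50 after an annotated start, existed for 64 of the 78 members. A heat shock element of 2 units was searched as GAANNTTC or TTCNNGAA, and 1 of 3 units as GAANNTTCNNGAA or TTCNNGAANNTTC. These patterns cover both strands, and every 3-unit match contains 2-unit matches. A 2-unit match stood in 19 of the 64 genes (29.7%), against 17.0% of the 27025 genes with a window in the whole table. A 3-unit match stood in 4 of the 64 (6.25%), namely Dnajb6, Hspd1, Hspe1 and Hsph1, against 0.662% of all genes. Some genes have several windows, which can overlap, and a match describes letters and no measured binding. The windows below belong to members that the results turn on: Hspa1b and Hsph1, which had among the widest ranges over the 12 mice, Hspe1, whose start lies beside that of Hspd1, and Hspa4, which had the smallest p in the 118Q effect. Capitals mark the matched letters, and the Hspa4 window held none.
Hspa1b, chr17:34959189-34959488, minus strand: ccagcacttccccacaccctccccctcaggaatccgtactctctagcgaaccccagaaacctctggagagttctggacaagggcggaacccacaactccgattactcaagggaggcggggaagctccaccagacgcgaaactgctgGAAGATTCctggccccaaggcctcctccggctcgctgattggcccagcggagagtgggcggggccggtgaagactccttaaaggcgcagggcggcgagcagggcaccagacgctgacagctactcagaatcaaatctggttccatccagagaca
Hsph1, chr5:149636266-149636565, minus strand: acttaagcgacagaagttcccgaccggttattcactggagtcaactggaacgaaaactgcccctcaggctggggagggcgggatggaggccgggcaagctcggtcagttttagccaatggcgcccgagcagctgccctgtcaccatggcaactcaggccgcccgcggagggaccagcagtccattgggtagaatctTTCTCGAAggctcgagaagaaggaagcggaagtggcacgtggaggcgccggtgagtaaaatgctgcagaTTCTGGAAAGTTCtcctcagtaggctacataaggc
Hspe1, chr1:55087898-55088197, plus strand: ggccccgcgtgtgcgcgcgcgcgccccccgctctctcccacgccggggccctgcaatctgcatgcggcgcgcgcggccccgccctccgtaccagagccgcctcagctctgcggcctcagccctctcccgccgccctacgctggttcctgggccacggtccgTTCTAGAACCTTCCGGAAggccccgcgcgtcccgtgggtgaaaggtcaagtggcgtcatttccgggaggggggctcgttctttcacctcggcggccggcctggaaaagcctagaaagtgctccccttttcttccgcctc
Hspa4, chr11:53300430-53300729, minus strand: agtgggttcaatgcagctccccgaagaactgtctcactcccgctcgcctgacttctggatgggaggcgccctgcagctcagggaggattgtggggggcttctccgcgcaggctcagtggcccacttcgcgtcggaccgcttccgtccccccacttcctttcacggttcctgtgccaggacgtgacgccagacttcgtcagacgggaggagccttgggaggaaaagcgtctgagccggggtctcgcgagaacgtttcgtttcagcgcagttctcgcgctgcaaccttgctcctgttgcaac
The Hspe1 window shares 285 bases with a window of Hspd1 read on the opposite strand, so the same run of capitals lies upstream of both starts. The Hspa1a and Hspa1b windows are equal at 296 of 300 positions. The transcripts of this pair are also nearly identical, so the array may not separate them and their values count as uncertain to split.

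Array quality moved with the groups. The mean signal of the 18S ribosomal RNA probe sets was 8.80 ± 0.37 log2 units in 118Q knockin mice and 9.92 ± 0.35 in their littermates, and 10.24 ± 0.13 in 11Q knockin mice and 10.44 ± 0.17 in theirs (SD, n = 3 each). All 118Q knockin arrays (8.56 to 9.23) lay below all other arrays (9.66 to 10.54). The fits below with this signal as a covariate therefore separate it poorly from the 118Q knockin group. The correlation across genes between an array's deviation and gene span was -0.29 ± 0.044 in 118Q knockin mice and 0.036 ± 0.11 in their littermates, and 0.15 ± 0.044 in 11Q knockin mice and 0.20 ± 0.047 in theirs. Granule cell markers, the bulk of the tissue, gave summed signals of 12.64 to 12.84 log2 units on all 12 arrays. The summed signal of 6 choroid plexus markers ranged from 6.40 to 12.05 log2 units over the arrays, within groups as well as between them. Purkinje cell markers (10 of 12 listed) summed to 12.55 to 12.99 log2 units in 118Q knockin mice and 13.17 to 13.20 in their littermates, and microglial markers (10 of 12 listed) summed to 8.21 to 8.60 in 118Q knockin mice and 7.84 to 8.05 in their littermates. In the 118Q effect, 9 of the 10 Purkinje markers lay below 0 (median -0.67, 2 called lower) and all 10 microglial markers above 0 (median 0.68, 1 called higher). Endothelial and mural markers summed to 8.58 to 8.80 in 118Q knockin mice and 8.85 to 9.19 in their littermates, with 9 of 9 below 0 in the 118Q effect (median -0.49, 1 called lower). Interneuron markers summed to 9.48 to 10.39 in 118Q knockin mice and 10.32 to 10.62 in their littermates, with 6 of 8 below 0 (median -0.48, 0 called). The part of these shifts in the results below was not tested.

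The first comparison asked what the 118Q allele changed in its own line. Calls were made from a limma fit across the 12 arrays, for p-values under 0.05 after Benjamini-Hochberg adjustment over the 12672 genes tested. No member was called, 0 of 70, and the background was 0.189% of all genes (24 of 12672). At an unadjusted p below 0.05, 5 members lay higher in 118Q knockin mice (background 12% of genes) and 9 lower (background 6.7%). Those lower were Hspa4, Hspa4l, Hsp90aa1, Dnajc6, Hspa12a, Hspd1, Dnajb14, Hspa8 and Dnajc16, and those higher were Hspb6, Dnajc4, Hspbp1, Dnajc15 and Dnajc17. The median difference over the members was -0.027 log2 units, and over all genes 0.057. Together, 40 of 70 members lay below 0, against 40% of all genes. With the 18S signal as a covariate, 23 of 70 members (32.9%) and 39.3% of all genes lay below 0. All 3 knockin arrays lay above all 3 littermate arrays for 8 members (background 15.1%) and below them for 11 (background 7.24%). In whole tissue, fewer cells of a type and less RNA per cell cannot be told apart.

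**Figure D1:**
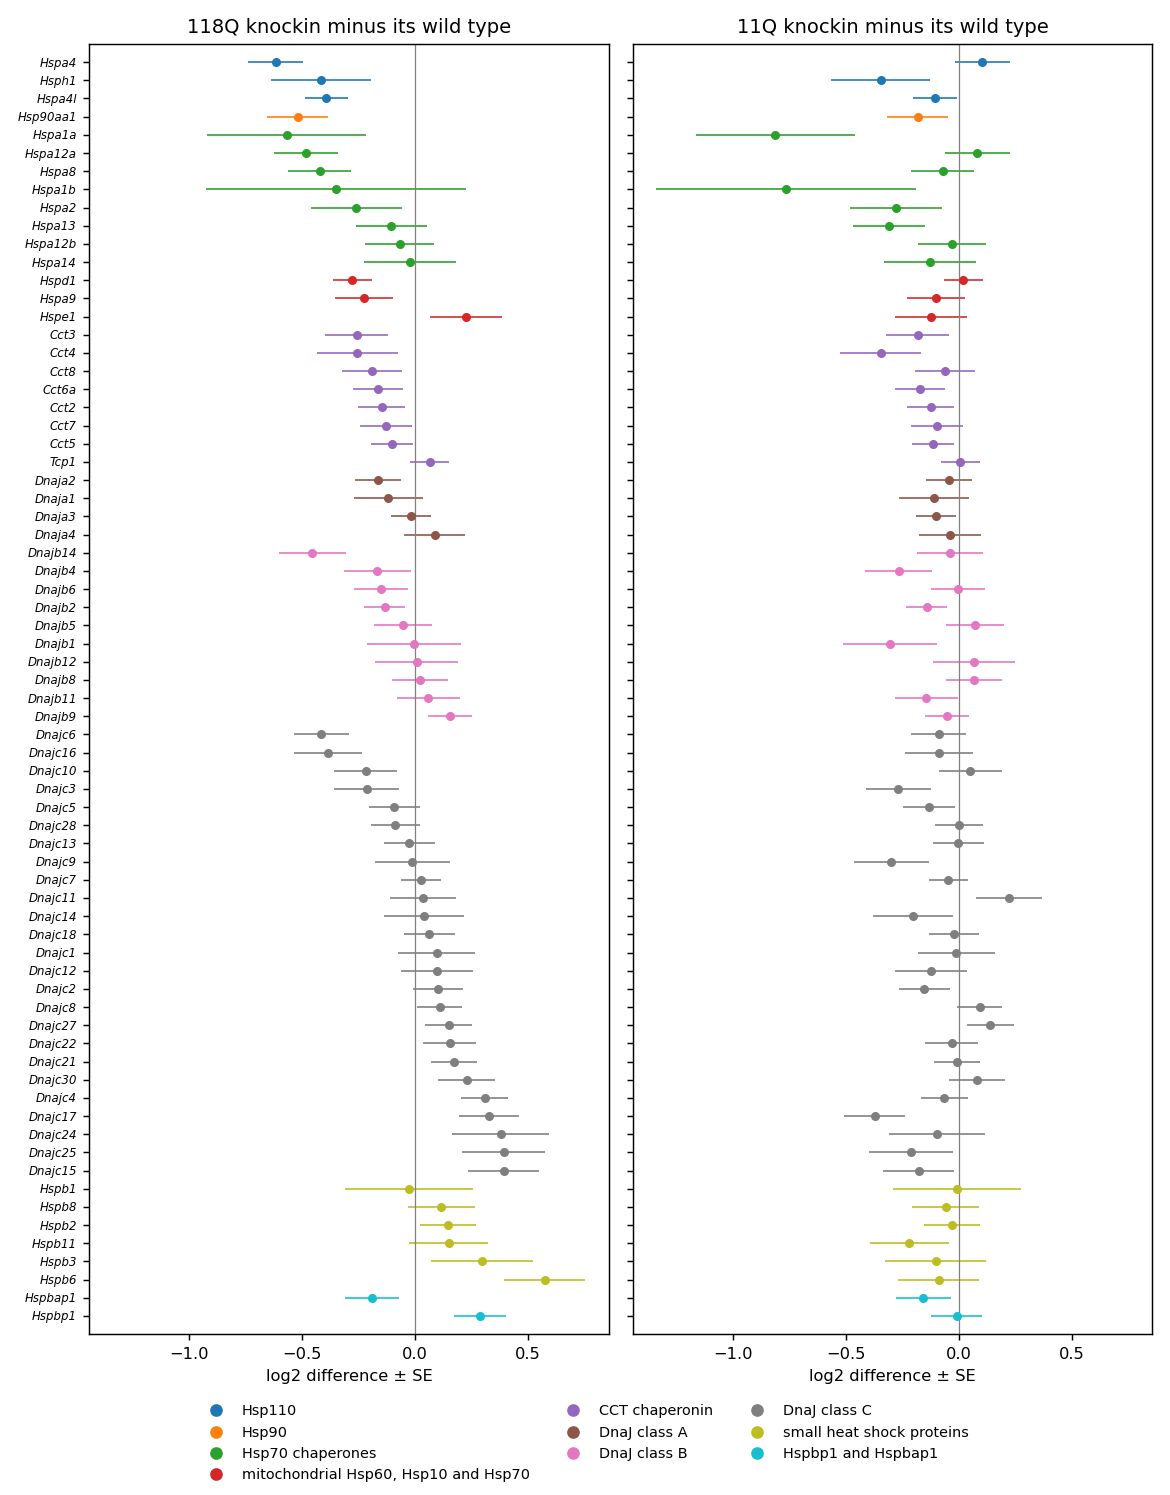
Log2 difference ± SE of the 70 tested members, on the x axis, for 118Q knockin minus its wild type littermates (left) and 11Q knockin minus its wild type littermates (right), with members down the page by role and by their 118Q difference. All 3 Hsp110 and all 8 Hsp70 members lie below 0 on the left, and 57 of the 70 members lie below 0 on the right.

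By role, all 3 Hsp110 members (median -0.42) and all 8 Hsp70 members (median -0.31) were below 0 in the 118Q effect, as was Hsp90aa1. Of the 8 CCT subunits 7 were below 0 (median -0.16), with none at an unadjusted p below 0.05. Of the 25 DnaJ class C members 17 were above 0 (median 0.096), and of the 6 small heat shock genes 5 were above 0 (median 0.15). Over all genes, 7601 of 12672 were above 0, with a median of 0.057, so class C lay near the background. Class A and class B members were spread around 0, with medians of -0.068 over 4 and -0.028 over 10 genes. With the 18S signal as a covariate, the Hsp110 median stayed low at -0.64, while the Hsp70 median turned to 0.12 (6 of 8 above 0) and the CCT median to 0.16 (7 of 8 above 0). With the gene span trend removed, or with arrays centred or quantile normalized, the Hsp110, Hsp70 and CCT medians stayed below 0.

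Hspa4, an Hsp110 nucleotide exchange factor of Hsp70, read 6.31, 6.43 and 6.54 log2 units in 118Q knockin mice, against 7.23, 6.86 and 7.05 in their littermates. The groups did not overlap, and the difference was -0.62 ± 0.12 (SE), with a limma adjusted p of 0.057, the smallest of the members. Its levels in the 11Q line were 7.09, 7.03 and 7.36 in knockin mice and 7.02, 7.07 and 7.08 in littermates, which overlap. The 3 other Hspa4 probe sets above the filter also lay below 0 in the 118Q effect, at -0.78, -0.11 and -0.16. Leaving out 118Q knockin replicate 1 or 118Q wild type replicate 2 brought Hspa4 under the threshold, so its call turned on single mice, while its difference stayed between -0.71 and -0.53. It was -0.64 with the 18S covariate.

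Hspa4l, a second Hsp110 gene, read 6.92, 7.02 and 6.96 in 118Q knockin mice, against 7.40, 7.34 and 7.34 in their littermates. These groups did not overlap either (-0.39 ± 0.097, limma adjusted p = 0.076), and its 4 other probe sets lay between -0.39 and -0.13. Hsph1, the heat-inducible Hsp110 gene, read 6.64, 7.46 and 6.99 in 118Q knockin mice and 7.44, 7.42 and 7.48 in their littermates. Knockin replicate 2 reached the littermates' level, and the difference of -0.42 ± 0.22 had a limma adjusted p of 0.33. For Hsph1 it was -0.22 without knockin replicate 1 and -0.63 without knockin replicate 2.

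Hsp90aa1, the inducible cytosolic Hsp90, read 9.47, 9.13 and 9.06 in 118Q knockin mice, against 9.58, 9.73 and 9.91 in their littermates (-0.52 ± 0.14, limma adjusted p = 0.088). It was -0.060 with the 18S covariate. The groups did not overlap, with knockin replicate 1 close to the lowest littermate. Hspa8, the constitutive Hsp70 that also strips clathrin from vesicles, read 10.35, 9.92 and 10.03 in 118Q knockin mice, against 10.51, 10.66 and 10.40 in their littermates (-0.42 ± 0.14, limma adjusted p = 0.15). Dnajc6 codes for auxilin, the neuronal J-protein that brings Hspa8's product to clathrin coats. It read 8.11, 7.60 and 7.79 in 118Q knockin mice, against 8.17, 8.21 and 8.36 in their littermates (-0.42 ± 0.12, limma adjusted p = 0.11). With the 18S covariate it lay at 0.016. In Hsp90aa1, Hspa8 and Dnajc6 alike, knockin replicates 2 and 3 were the low ones. The median deviation of the 10 Purkinje markers from their mean over 12 arrays was likewise lower in knockin replicates 2 and 3, at -0.090, -0.72 and -0.59 in knockin replicates 1, 2 and 3, against 0.16 to 0.26 in the littermates. The same 2 arrays were also the lower ones for the interneuron markers, at -0.00085, -0.81 and -0.57, and for the endothelial and mural markers, at -0.088, -0.54 and -0.52. The 18S signal was lower in these 2 arrays as well, at 9.23, 8.63 and 8.56 in knockin replicates 1, 2 and 3. Their correlations of deviation and gene span were -0.25, -0.33 and -0.30 in the same order. The part of these marker and quality shifts in the chaperone genes was not tested. Hspa4, Hspa4l and Hspd1 were low on all 3 knockin arrays.

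Not every probe set of these genes moved the same way. A second Dnajc6 probe set gave -0.84 and another 0.20, and of the other Hspa8 probe sets -0.47 and -0.69 stood beside 0.076 for a dimmer probe set. Over the 44 members with further probe sets above the filter, 62 of 83 such probe sets had the sign of the brightest in the 118Q effect.

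**Figure D2:**
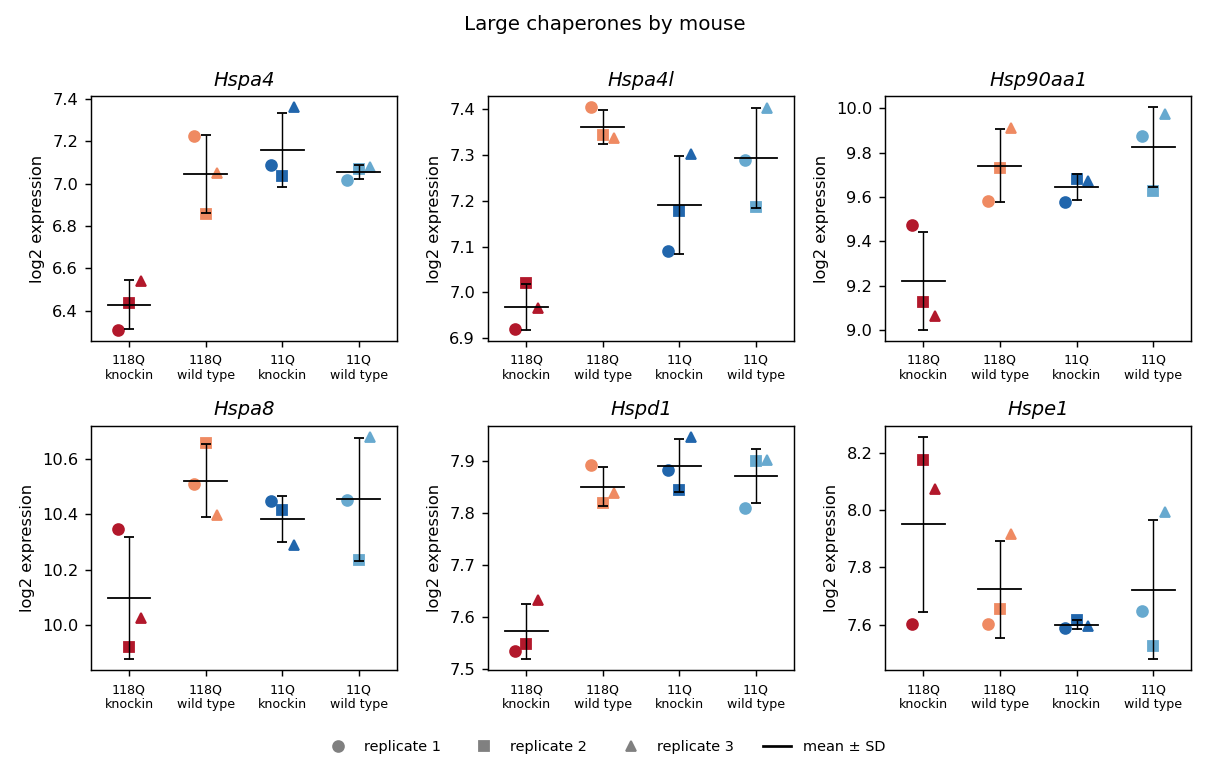
Log2 expression (y axis) of Hspa4, Hspa4l, Hsp90aa1, Hspa8, Hspd1 and Hspe1 in each mouse by group (x axis), with replicates as symbols and bars for the mean ± SD of 3 mice. The 118Q knockin mice lie below all their littermates for the first 5 genes, and for Hspe1 the groups overlap.

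Hspd1 and Hspe1 code for mitochondrial Hsp60 and its lid Hsp10, and their starts share the window printed above. Hspd1 read 7.54, 7.55 and 7.63 in 118Q knockin mice, against 7.89, 7.82 and 7.84 in their littermates (-0.28 ± 0.087, limma adjusted p = 0.14). Hspe1 read 7.60, 8.17 and 8.07 in 118Q knockin mice, against 7.60, 7.65 and 7.92 in their littermates (0.23 ± 0.16, limma adjusted p = 0.48). Hspd1 separated the groups and Hspe1 did not, and the signs of the differences were opposite. A second Hspe1 probe set gave 0.26. The Hspe1 difference was 0.40 without knockin replicate 1, 0.11 without knockin replicate 2 and 0.076 with the 18S covariate. Hspa9, the mitochondrial Hsp70, had a difference of -0.23 ± 0.13 (limma adjusted p = 0.37).

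Among the remaining Hsp70 members, Hspa12a, a distant relative of the classical Hsp70 proteins, read 5.15, 4.95 and 4.94 in 118Q knockin mice and 5.55, 5.49 and 5.46 in their littermates. The groups did not overlap (-0.48 ± 0.14, limma adjusted p = 0.12), and a second Hspa12a probe set above the filter gave -0.19. Hspa1a had the most negative Hsp70 difference (-0.57) but with an SE of 0.35 and overlapping arrays. Hspa13 lay at -0.10 and changed sign without 118Q wild type replicate 3.

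The CCT subunits differed from the littermates by -0.26 to 0.064 log2 units. Cct3 read 7.74, 7.58 and 7.46 in 118Q knockin mice, against 7.70, 7.83 and 8.03 in their littermates, with overlap (-0.26 ± 0.14). Cct2 separated the groups by a narrow margin, at 8.11, 7.93 and 8.05 in 118Q knockin mice, against 8.12, 8.11 and 8.29 in their littermates (-0.15 ± 0.10, limma adjusted p = 0.47). Under the 18S signal as a covariate, Cct2, Cct3, Cct6a and Cct8 lay above 0, so the side on which these subunits lie depended on that choice.

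Of the J-domain genes tied to glutamine repeats, Dnajb6 read 8.64, 8.29 and 8.46 in 118Q knockin mice and 8.52, 8.66 and 8.68 in their littermates, with overlap. Dnajb2 read 6.77, 6.75 and 6.76 in 118Q knockin mice, against 6.87, 6.89 and 6.93 in their littermates, without overlap. The differences were -0.15 ± 0.12 for Dnajb6 and -0.13 ± 0.091 for Dnajb2, and neither was called. Dnajb14, a J-protein of the endoplasmic reticulum membrane, had the most negative difference of class B, -0.46 ± 0.15 (limma adjusted p = 0.14), with 1 knockin array inside the littermates' range.

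The class C genes above 0 included Dnajc15, a J-protein of the mitochondrial inner membrane, at 0.39 ± 0.16, and Dnajc4 at 0.31 ± 0.10. Dnajc17, a nuclear J-protein, read 4.59, 4.83 and 4.81 in 118Q knockin mice, against 4.44, 4.38 and 4.44 in their littermates. The groups did not overlap (0.33 ± 0.13, limma adjusted p = 0.22). Hspbp1, which exchanges nucleotide on Hsp70 as the Hsp110 proteins do, read 5.81, 5.75 and 5.80 in 118Q knockin mice, against 5.44, 5.71 and 5.35 in their littermates (0.29 ± 0.11, limma adjusted p = 0.21). Its knockin arrays all lay above the littermates, by a small margin over wild type replicate 2.

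Of the small heat shock genes, Hspb6, known for its role in muscle, stood out. It read 4.84, 4.46 and 4.51 in 118Q knockin mice, against 4.01, 4.11 and 3.97 in their littermates (0.57 ± 0.18, limma adjusted p = 0.14). These groups did not overlap, yet 11Q wild type mice read 4.24, 4.34 and 3.79 and spread nearly as far. Hspb1, the inducible Hsp27, differed by -0.028 ± 0.28 and changed sign when any of 3 single arrays was left out.

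The second comparison asked what the 11Q allele, with a tract of normal length, changed. limma called 0 of 70 members and 0% of all genes. At an unadjusted p below 0.05, 2 members lay lower in 11Q knockin mice, Dnajc17 and Hspa1a (background 3.13%), and none higher (background 1.1%). The members' median was -0.092 log2 units against -0.035 over all genes, and 57 of 70 (81.4%) lay below 0, against 59.3% of all genes. No member lay higher without overlap (background 3.24%) and 6 lay lower (background 7.17%). Dnajc17 read 4.04, 4.03 and 3.64 in 11Q knockin mice, against 4.28, 4.07 and 4.46 in their littermates (-0.37 ± 0.13, limma adjusted p = 0.94).

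The low side of the 11Q effect depended on a single littermate. Without 11Q wild type replicate 3, the members' median was -0.040 and 61.4% lay below 0, against -0.018 and 57% for all genes. That array held the highest value of the 12 for 24 of 70 members (34.3%), against 14.1% of all genes. Relative to the mean of the other 2 mice of its group, it stood more than 0.5 log2 units higher for 13 of 70 members (18.6%), against 6.77% of all genes. These members were chosen after their values were seen.

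The 13 members were Hspa1b, Hspa1a, Hspb1, Dnajb1, Hsph1, Hspa14, Dnajc24, Dnajb4, Dnajc14, Cct4, Dnajc1, Dnajc9 and Dnaja1, in falling order of that distance. Hspa1b, an Hsp70 gene known to be induced by heat, read 4.57, 4.55 and 4.46 in 11Q knockin mice, against 4.40, 4.47 and 6.99 in their littermates. Replicate 3 lay 2.55 log2 units above the mean of the other 2 littermates. The 118Q line read 4.29, 5.69 and 4.21 in knockin mice and 5.12, 4.61 and 5.52 in littermates, so the spread between mice was wide there too. Hspa1a had the same high mouse, at 3.65, 4.17 and 3.47 in 11Q knockin mice and 3.93, 4.20 and 5.60 in their littermates. For Hspb1 that mouse lay 1.09 above its group mates, for Dnajb1, the inducible Hsp40, 0.81, for Hsph1 0.80 and for Dnaja1 0.53. Other members stood between these values, with Hspa14, of the ribosome-bound pair with Dnajc2, at 0.79 and the chaperonin subunit Cct4 at 0.59. The inducible Hsp90aa1 lay 0.22 above its group mates and the constitutive Hspa8 0.34. In the 118Q line, knockin replicate 2 was the highest of its group for Hspa1b, Hspa1a, Hspb1, Dnajb1, Hsph1 and Dnaja1, a set of 6 chosen after the values were seen. The cause of these differences between mice was not tested.

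**Figure D3:**
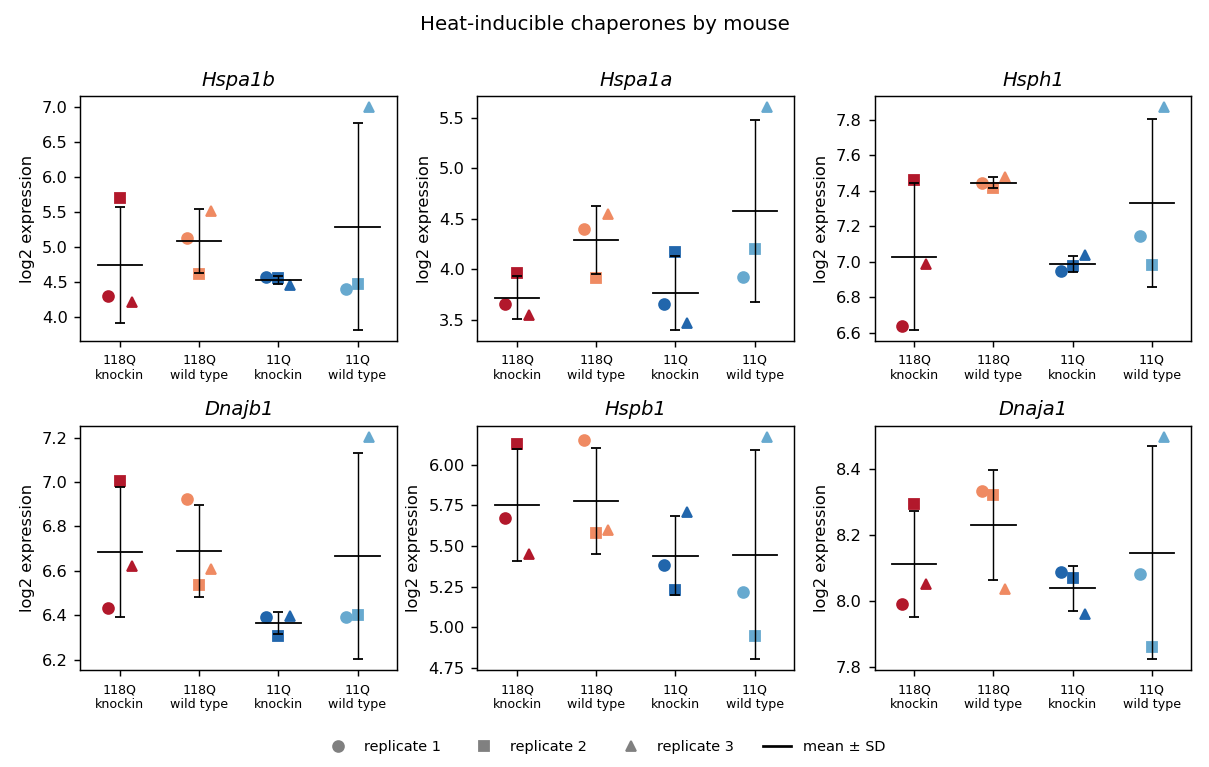
Log2 expression (y axis) of Hspa1b, Hspa1a, Hsph1, Dnajb1, Hspb1 and Dnaja1 in each mouse by group (x axis), with replicates as symbols and bars for the mean ± SD of 3 mice. Wild type replicate 3 of the 11Q line is the highest of the 12 mice in all 6 panels, at 6.99 for Hspa1b.

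The promoter letters can be set beside this mouse's values, as a description with no test. On its array, the median deviation from the mean of 12 arrays was 0.15 over the 18 tested members with a 2-unit match and 0.14 over the 39 with a window and no match. Of the 6 genes plotted, 5 hold a match (Hspa1b, Hspa1a, Hsph1, Hspb1 and Dnaja1), and Dnajb1 holds none in its windows. These 6 were chosen after their values were seen, and the nearly equal Hspa1a and Hspa1b windows are not separate matches. Of the other members listed as high in this mouse, Dnajb4 holds a match. Hspa14, Dnajc24, Dnajc14, Dnajc1 and Dnajc9 hold none, and Cct4 has no window.

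By role, the array medians show both patterns. The median deviation of the 3 Hsp110 genes was -0.56, -0.18 and -0.24 in 118Q knockin mice and 0.24, 0.14 and 0.13 in their littermates, and in 11Q knockin mice -0.11, -0.025 and 0.099 against 0.087, -0.017 and 0.20 in theirs. The Hsp70 median was -0.081, -0.23 and -0.42 in 118Q knockin mice and 0.11, 0.034 and 0.17 in their littermates. It was 0.36 in 11Q wild type replicate 3, the highest of the 12. The small heat shock genes had medians of 0.20 to 0.25 in 118Q knockin mice and -0.074 to 0.011 in their littermates.

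**Figure D4:**
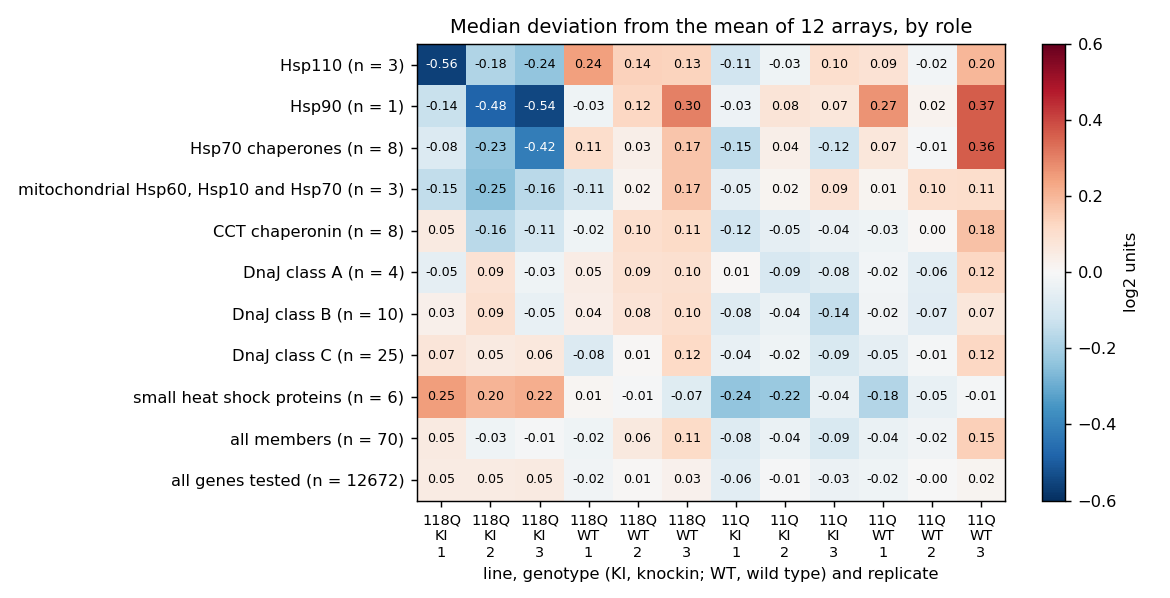
Median deviation from the mean of 12 arrays, in log2 units (colour and printed value), for each role (rows) in each mouse (columns, by line, genotype and replicate). Hsp110, Hsp90 and Hsp70 rows are below 0 in all 118Q knockin columns, and the Hsp70 row reaches 0.36 in 11Q wild type replicate 3.

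The difference between both knockin effects tested whether the alleles acted differently. limma called 0 of 70 members and 0% of all genes. At an unadjusted p below 0.05, 5 members were more positive in the 118Q line (background 8.09%) and 3 more negative (background 2.9%). The most negative was Hspa4, at -0.72 ± 0.17 (limma adjusted p = 0.35), but -0.29 with the mean of its probe sets. Hspa12a (-0.57 ± 0.20, but 0.17 for its second probe set above the filter) and Hspd1 (-0.30 ± 0.12) followed, and Dnajc17 was the most positive at 0.70 ± 0.19 (limma adjusted p = 0.35). The members' median was 0.047 against 0.078 over all genes, and it turned to -0.027 without 11Q wild type replicate 3.

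Setting 118Q knockin against 11Q knockin mice gave the only called members. This comparison shares its 118Q knockin arrays with the first comparison and its 11Q knockin arrays with the second, and it also takes in any difference between the lines. limma called 11 of 70 members (15.7%), against 13.7% of all genes. Of these 6 were higher in 118Q knockin mice (8.57% of members, background 10.1%) and 5 lower (7.14%, background 3.6%). The arrays did not overlap for 19 members that were higher (background 26.5%) and 9 that were lower (background 11.6%). The median difference of the members was 0.054, and that of all genes 0.093.

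The 5 lower genes were Hspa4, Hspa12a, Dnajb14, Dnajc6 and Hspd1. Hspa4 fell by 0.73 ± 0.12 (limma adjusted p = 0.00676) and Hspa12a by 0.65 ± 0.14 (limma adjusted p = 0.0148). Hspa12a read 5.15, 4.95 and 4.94 in 118Q knockin mice, against 5.55, 5.49 and 5.96 in 11Q knockin mice. Its second probe set above the filter lay on the other side, at 0.14, and with the mean of its probe sets Hspa12a differed by -0.26 and was not called. Dnajb14 read 6.08, 5.55 and 5.75 in 118Q knockin mice, against 6.41, 6.35 and 6.28 in 11Q knockin mice (-0.55 ± 0.15, limma adjusted p = 0.031). Dnajc6 fell by 0.43 ± 0.12 and Hspd1 by 0.32 ± 0.087.

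The 6 higher genes were Dnajc17, Dnajc15, Dnajc25, Dnajc4, Hspbp1 and Dnajc2, 5 of them class C J-proteins. Dnajc17 rose by 0.84 ± 0.13 (limma adjusted p = 0.00629), and a second probe set gave 0.47. Dnajc15 read 6.56, 7.09 and 7.01 in 118Q knockin mice, against 6.20, 6.26 and 6.10 in 11Q knockin mice (0.70 ± 0.16, limma adjusted p = 0.0164). Dnajc25 also rose by 0.70 ± 0.18, at a low level of 2.27, 2.82 and 2.69 in 118Q knockin mice, against 1.58, 2.17 and 1.95 in 11Q knockin mice. Dnajc4 rose by 0.55 ± 0.10 and Hspbp1 by 0.41 ± 0.11. Dnajc2, a J-protein that sits on the ribosome beside the Hsp70 relative Hspa14, rose by 0.36 ± 0.11, just under the threshold (limma adjusted p = 0.049). For all 11 genes the arrays of both knockin groups did not overlap.

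**Figure D5:**
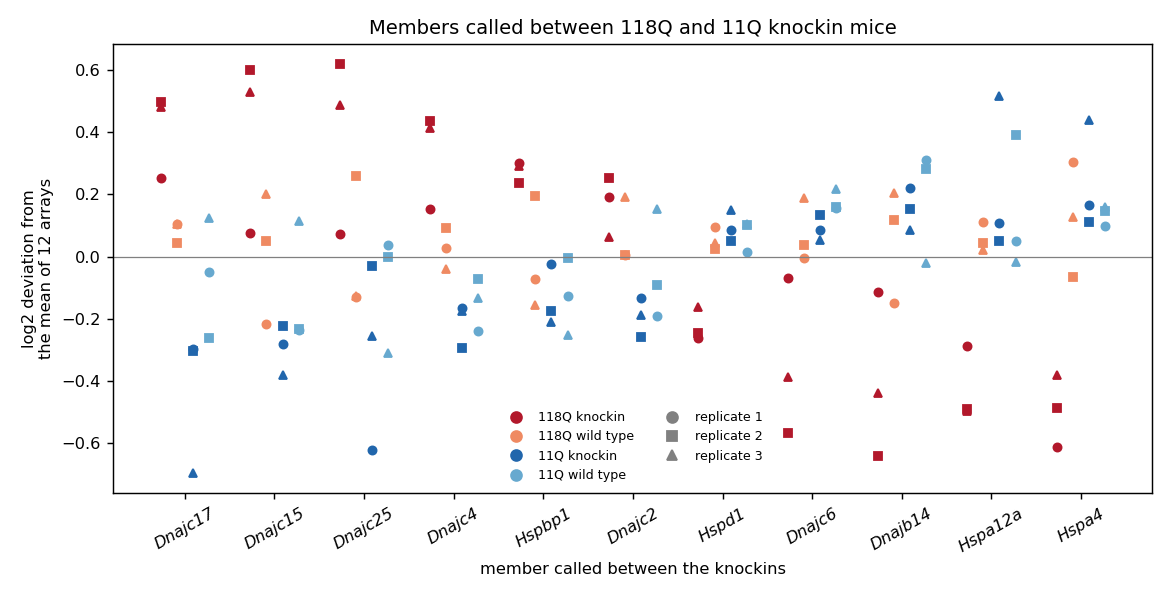
Log2 deviation from the mean of 12 arrays (y axis) of the 11 members called between the knockins (x axis), with a point per mouse, colours for groups and symbols for replicates. The 118Q knockin points lie above all 11Q knockin points for the 6 genes on the left and below them for the 5 on the right.

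The quality measures moved with this comparison as well. With the 18S signal as a covariate, 0 members and 0 genes were called. With a trend in gene span removed from each array, 7 members and 6.55% of all genes were called. Leaving out a single array gave 4 called members without 118Q knockin replicate 2 (background 4.92% of all genes). It gave 2 (Dnajc17 and Hspa4) without replicate 3 (background 2.52%). It gave 6 without 11Q knockin replicate 1 (background 5.69%) or 2 (5.62%), and 3 without its replicate 3 (4.79%). Without 11Q wild type replicate 3 it gave 14 (background 16.5%), the highest count. Across the members, the correlation of this difference with gene span was -0.29 (n = 70), and across all genes -0.33 (n = 12612). Genes share arrays, so this is a description.

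The wild type littermates of both lines gave no called member. limma called 0 of 70 members and 0% of all genes, and no member had an unadjusted p below 0.05 (background 2.98%). Arrays did not overlap for 5 members, against 6.44% of all genes. Hspb1 had the largest difference, 0.33 ± 0.28, for 118Q over 11Q wild type mice.

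Partner proteins came from lists of genes that act with these chaperones. Prefoldin hands unfolded actin and tubulin to the chaperonin. The list of prefoldin subunits and CCT partners held 11 genes. In the 118Q effect 9 of them lay above 0 (median 0.24, 0 called), against 7601 of all 12672 genes (median 0.057). All 11 lay below 0 in the 11Q effect, against 59.3% of all genes. Their median deviation was -0.17, -0.12 and -0.27 in 11Q knockin mice, against -0.14, -0.14 and 0.12 in their littermates, with replicate 3 the high one. Between the knockins, 6 of the 11 were called higher in 118Q knockin mice (Pfdn1, Pfdn2, Pfdn4, Pfdn5, Pfdn6 and Uxt), with a median of 0.35, against 10.1% of all genes called higher and a median of 0.093 over all genes. The CCT subunits themselves had a median of 0.023 in that comparison and no call. With the 18S signal as a covariate, 0 of all genes were called between the knockins, so the 6 prefoldin and partner calls were lost there. Their calls under the other settings are not reported here.

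Pfdn5 read 8.17, 8.50 and 8.40 in 118Q knockin mice, against 7.76, 7.86 and 7.94 in their littermates. The groups did not overlap (0.50 ± 0.11, limma adjusted p = 0.067). Pfdn4 read 6.35, 6.91 and 6.76 in 118Q knockin mice, against 5.99, 6.04 and 6.14 in their littermates, also without overlap (0.62 ± 0.15, limma adjusted p = 0.072).

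Of 15 co-chaperones of Hsp90, 8 lay above 0 in the 118Q effect (7601 of 12672 over all genes) and none was called. Between the knockins 2 of the 15 were called higher (background 10.1%), Cdc37, which loads kinases onto Hsp90, at 0.39 ± 0.12 and Nudc at 0.44 ± 0.12. Stub1, the ubiquitin ligase that tags chaperone clients, differed by 0.23 ± 0.098 in the 118Q effect, and Fkbp5 by 0.69 ± 0.36. Of 14 Hsp70 partners, 10 lay above 0 in the 118Q effect (7601 of 12672 over all genes) with none called. Among them Hscb, a J-protein of mitochondrial iron-sulfur cluster assembly, differed by 0.45 ± 0.11 (limma adjusted p = 0.077). Hscb alone of the 14 was called between the knockins, at 0.51 ± 0.11 (background 10.1% of all genes called higher). Bag3, an exchange factor that works with Hspb8, differed by -0.25 ± 0.11 in the 118Q effect.

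Of 10 heat shock factors and other heat-inducible genes, 5 lay above 0 in the 118Q effect (7601 of 12672 over all genes) and none was called. Between the knockins 2 of the 10 were called higher (background 10.1%), Hsbp1, whose product binds heat shock factor 1, at 0.45 ± 0.11, and Cryab, a small heat shock protein of glia and lens, at 0.84 ± 0.21. Cryab differed from the littermates by 0.097 ± 0.21 in the 118Q line and by -0.64 ± 0.21 in the 11Q line. It read 8.06 in 11Q wild type replicate 3, the highest of the 12 arrays, and 7.37 and 7.31 in the other 2 mice of that group. Ubqln1 and Slc5a3 had the smallest p of this list in the 118Q effect, at -0.26 ± 0.092 and -0.48 ± 0.21, without a call.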

How the data were processed

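Total RNA of 12 cerebella (RNA integrity number above 5.0, per the labels' protocols) was hybridised to 1-colour arrays. The authors deposited log2 values per probe set, made with RMA per the submitters' processing notes, whose version is not given in the sources used here. No further normalization was applied. Array medians were 2.21 to 2.38. Of 45101 probe sets, 34958 had a single symbol. The 40% with the lowest mean were removed, which left 27061, and the brightest probe set per symbol gave 12672 genes. A group-means model was fitted with limma 3.58.1 in R 4.3.3 and tested on simulated data. Tests were two-sided. The labels do not name separate litters or hybridisation days, and 3 arrays a group limit the precision (median SE 0.139 for an effect, 0.197 for a difference of effects).

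The members, partner lists, markers and tests were chosen with earlier results of these data known. Named members were those called in any comparison, in each role the 2 brightest and, by 118Q effect, the 3 with the smallest p, and the 3 with the smallest p in each other comparison. Named partners were those called and the 2 with the smallest p in the 118Q effect per list. Members named for 11Q wild type replicate 3 were added after their values were seen. Alternatives were other filters, probe set summaries, normalizations, variance models, covariates and thresholds, and leaving out arrays. Promoter windows came from RefSeq (GRCm38.p6).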

Additional observations from a re-analysis of the deposited data

Results flagged for a closer look

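Dnajc17 moved in opposite directions in both lines. All 3 118Q knockin arrays lay above their littermates (0.33 ± 0.13) and all 3 11Q knockin arrays lay below theirs (-0.37 ± 0.13). The difference of the effects was 0.70 ± 0.19 (SE), but its limma adjusted p was 0.35 over all genes. Over the fits without a single array it ranged from 0.57 (without 11Q knockin replicate 3) to 0.80 (without 11Q wild type replicate 2). With the 18S signal as a covariate the Dnajc17 difference of the effects was 0.50, and its 118Q effect was 0.080. The second Dnajc17 probe set above the filter gave 0.30 for the 118Q effect, -0.057 for the 11Q effect and 0.36 for the difference of the effects.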

How the results depend on the processing

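Of the called members in the 118Q effect, 0 as reported, removal of the lowest 60% of probe sets gave 1 (Hspa4), an intensity trend 2, an adjusted p below 0.1 gave 3, a change of 1.5-fold or more at an unadjusted p below 0.05 gave 1, array weights 19, and leaving out single arrays 0 to 7 (7 without 118Q knockin replicate 1). The same fold rule gave 1 member in the 11Q effect, 4 in the difference of effects and 6 between the knockins. The share of all genes under this fold rule is not reported here, so these counts have no background. Array weights, whose fit did not fully converge, gave 4 in the difference of effects and 31 between the knockins. The shares over all genes in these comparisons were 4.83% and 48.2%. Between the knockins, 11 as reported (13.7% of all genes), the 18S signal as a covariate gave 0 and removal of the gene span trend 7 (6.55%). Single arrays left out gave 2 to 14 members there, and 2.52% to 17.9% of all genes. Over all genes, the 118Q effect gave 24 calls as reported, 3131 with array weights, 200 with an intensity trend, 150 without the lowest 60%, 5 with the replicate block, 7 without the gene span trend, 0 with the 18S covariate or with only the groups compared, and 4 to 707 with single arrays left out. The members' median turned to 0.078 (18S) and -0.15 (gene span) in the 118Q effect. In the difference of effects it turned to 0.16 and -0.030, and between the knockins to 0.22 and -0.044. The median of the members on single arrays had an SD of 0.066 within groups, which is not the spread of a difference between groups. Leaving out single arrays gave -0.027 (without 11Q wild type replicate 3) to 0.087 for the median of the difference of effects.

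Single members changed sign in the 118Q effect under some settings. Hspa13 turned to 0.032 (mean of probe sets), to 0.040 (without 118Q wild type replicate 3, or replicate 3 of both wild types; single arrays left out gave -0.27 to 0.040) and to 0.35 (18S). Hspb1 turned to 0.012, 0.12 and 0.16 without 118Q knockin replicate 1, knockin replicate 3 and wild type replicate 1 (range -0.22 to 0.16). Hspb8 turned to -0.0071 without knockin replicate 1 (range -0.0071 to 0.24), and Dnaja4 to -0.033 without wild type replicate 2 (range -0.033 to 0.18). The 18S covariate turned Cct2 to 0.16, Cct3 to 0.19, Cct6a to 0.064, Cct8 to 0.18, Dnajc16 to 0.13, Dnajc25 to -0.11, Dnajc6 to 0.016 (and to 0.12 between the knockins), Dnajc8 to -0.032, Hspa1a to 0.046 and Hspa9 to 0.22. Removal of the gene span trend turned Hspb2 to -0.026. The cause was not tested. Of the other values of named members under an alternative, 1265 stayed on their side of the threshold, 70 lost a call and 27 gained 1.

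The replicate numbers are not stated to pair the mice. As deviations from group means, same-numbered knockin and littermate arrays correlated at -0.079, -0.11 and -0.029 in the 118Q line. In the 11Q line the values were 0.19, -0.17 and 0.013. Arrays with different numbers ranged from -0.25 to 0.32, both in the 118Q line. With 3 arrays a group, these values cannot decide whether the mice were paired. With the replicate block, 0 members were called in the 118Q effect, the 11Q effect and their difference. Between the knockins it gave 12 members and 14.2% of all genes. Signals near the filter, such as Dnajc25 and Hspb2, are the least certain levels.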

Other observations

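Cirbp, the cold-inducible RNA-binding protein, was chosen after its values were seen. It read 7.48, 5.13 and 5.81 log2 units in 118Q knockin mice, against 5.66, 5.79 and 6.23 in their littermates, and 6.40, 6.41 and 6.46 in 11Q knockin mice, against 6.28, 6.78 and 5.79 in theirs. 118Q knockin replicate 2 and 11Q wild type replicate 3 were the lowest of their groups, and both were the highest of their groups for Hspa1b and Dnajb1. This did not hold in the other groups: 118Q wild type replicate 3 was the highest of its group for both Hspa1b (5.52) and Cirbp, and 11Q knockin replicate 3 had the highest Cirbp of its group and, by a margin under the spread of the group, the highest Dnajb1 (6.40). No test was made of this relation.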
